A study of Mus musculus with 24 samples.

Results

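Brain endothelial cells, which line the vessels, and the mural cells that wrap them (pericytes and smooth muscle cells) were followed through 35 of their genes in subregions of the mouse suprachiasmatic nucleus (SCN), the site of the master circadian clock in the hypothalamus. The members were a fixed list of symbols, 27 endothelial and 8 mural, among the 18193 genes that a probe set with a single symbol represented on the arrays. Of the 35, 33 had such a probe set and 30 were tested, 23 endothelial and 7 mural, because their log2 value exceeded 4 on at least 4 of the 24 arrays. Ly6a and Ly6c1 had no probe set of their own, and Tie1 (over 4 on 2 arrays), Sox18 (on 3 arrays) and Anpep (on 0 arrays) stayed below the limit.

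C57BL/6 mice, 8 weeks old when obtained, had lived in constant dim red light for at least 7 days. They were given light for 30 min or handled as shams, and tissue was taken 3.5 h after that. Ventral, central and dorsal SCN were cut from haematoxylin-stained sections with a laser, which gave 6 groups (pulsed ventral, pulsed central, pulsed dorsal, sham ventral, sham central and sham dorsal) of 4 arrays, with replicates 1 and 2 amplified and labelled in batch A and replicates 3 and 4 in batch B. The sources used here state neither how the borders of the subregions were drawn nor which arrays share an animal, so p-values describe only the spread between these samples. No step selected cells by type, and in such tissue samples fewer vascular cells and less RNA per vascular cell cannot be told apart.

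Endothelial cells of the brain are sealed by tight junctions, so that nutrients and hormones enter through dedicated transporters while efflux pumps return foreign compounds to the blood. This barrier is kept up by signals between endothelial cells, pericytes and astrocytes, among them the vascular endothelial growth factor (VEGF), angiopoietin and platelet-derived growth factor pathways. Pericytes are more frequent on brain capillaries than in most other organs, while smooth muscle cells with a contractile apparatus surround arterioles.

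The 4 genes with the largest ventral to central differences that also have a start window in the reference are shown by that window, from 250 bases before to 50 after the transcription start, 5′ to 3′ on the gene's strand (RefSeq, GRCm38.p6). They are shown because they moved together between subregions while being scattered over the genome, apart from Slco1c1 and Slco1a4, whose starts lie 332 kb from each other on opposite strands. Capitals mark the ETS core AGGAAG or its complement CTTCCT, the SOX motif AACAAT and the E-box CACGTG, each searched on both strands. Slco1c1 is at chr6:141524104-141524403 (plus strand), Slco1a4 at chr6:141856171-141856470 (minus strand), Abcb1a at chr5:8566841-8567140 (plus strand) and Cldn5 at chr16:18776597-18776896 (plus strand).
Slco1c1: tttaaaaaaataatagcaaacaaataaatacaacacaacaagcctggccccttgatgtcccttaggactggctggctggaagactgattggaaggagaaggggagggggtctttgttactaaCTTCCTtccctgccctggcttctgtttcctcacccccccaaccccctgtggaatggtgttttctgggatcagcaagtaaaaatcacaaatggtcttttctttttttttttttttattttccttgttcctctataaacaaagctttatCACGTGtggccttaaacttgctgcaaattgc
Slco1a4: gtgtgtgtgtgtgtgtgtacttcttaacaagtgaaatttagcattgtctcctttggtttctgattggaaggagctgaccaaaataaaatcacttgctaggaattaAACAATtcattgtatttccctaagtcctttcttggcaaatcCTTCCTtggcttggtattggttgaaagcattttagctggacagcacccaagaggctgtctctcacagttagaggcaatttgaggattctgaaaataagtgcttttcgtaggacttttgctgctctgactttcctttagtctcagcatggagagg
Abcb1a: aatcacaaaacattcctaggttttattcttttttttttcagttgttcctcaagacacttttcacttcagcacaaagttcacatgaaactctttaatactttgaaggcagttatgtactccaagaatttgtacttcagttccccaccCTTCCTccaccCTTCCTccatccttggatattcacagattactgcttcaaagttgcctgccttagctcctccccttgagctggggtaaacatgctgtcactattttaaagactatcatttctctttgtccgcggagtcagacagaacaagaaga
Cldn5: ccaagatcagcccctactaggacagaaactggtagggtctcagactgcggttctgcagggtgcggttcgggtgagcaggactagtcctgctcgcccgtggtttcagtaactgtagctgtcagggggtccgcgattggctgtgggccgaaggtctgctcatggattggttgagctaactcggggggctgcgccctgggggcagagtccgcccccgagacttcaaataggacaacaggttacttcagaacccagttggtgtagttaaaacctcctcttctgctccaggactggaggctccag
The ETS core occurred once in Slco1c1, once in Slco1a4 and at 2 places in Abcb1a, the SOX motif in Slco1a4, the E-box in Slco1c1, and none of the 3 in Cldn5. Windows were found for 24 of the 35 members, and for 9 of the 10 that passed a test between subregions (none for Ptprb). The ETS core stood in 3 of these 9 windows and in 35.4% of all 32851 windows of the table, the SOX motif in 2 of the 9 and 10.7% of all, and the E-box in 1 of the 9 and 7.15% of all. These are matches of letters and not binding sites.

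The values are log2 expression values deposited by the authors. Their array medians were 3.52 to 3.62 in batch A and 4.81 to 5.07 in batch B, so levels are given per batch and every test carried the batch as a term. Pulsed dorsal replicate 4 stood apart, with a difference of 5.41 between 3′ and 5′ Gapdh probe sets against 0.887 to 1.07 on the other arrays of batch B and 2.02 to 3.28 in batch A, and with a median correlation of 0.913 with its batch. Pulsed central replicate 2 had the lowest such correlation in batch A, 0.955. Of the defining endothelial markers, Cldn5, Flt1 and Tek were over the limit on 23 or 24 arrays, Pecam1 on 4 and the cadherin Cdh5 on 0. Of the defining mural markers, Rgs5, Vtn, Pdgfrb and Acta2 were over it on 18 to 24 arrays and Kcnj8 on 5. Several members were thus read close to the floor of these arrays: Erg, Klf2 and Vwf exceeded it on only 4 or 5 arrays, and Eng, Emcn, Esam and Myl9 on 10 to 12.

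Each of the 10 members that passed a test between subregions had a lower level in the central SCN. Against the central SCN, 8 of 23 endothelial genes and 2 of 7 mural genes were higher in the ventral SCN and 0 were lower (adjusted p under 0.05, limma, 8 against 8 arrays, both treatments together), where 4.36% of the 13494 genes tested were higher. The 8 were Cldn5, Slc2a1, Slco1a4, Slco1c1, Abcb1a, Mfsd2a, Tek and Ptprb, and the 2 were Rgs5 and Vtn. The ventral minus central difference was above 0 for all 30 members and for 8567 of the 13494 genes. Its median was 0.40 on the log2 scale for endothelial and 0.54 for mural genes against 0.05 over all genes. The sign did not hold in every subset of arrays. It was below 0 for Kdr, Sox17, Emcn and Acta2 in batch A, for Bsg on sham arrays and for Erg and Acta2 on pulsed arrays. For Acta2 it also turned below 0 after quantile normalization. The test at an unadjusted p under 0.05 was passed by 12 endothelial and 5 mural genes, and by 1743 of the 13494 genes.

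Central against dorsal SCN, 6 endothelial genes (Cldn5, Slco1a4, Slco1c1, Abcb1a, Tek and Ptprb) and the mural genes Rgs5 and Vtn were lower in the central SCN and 0 were higher, where 5.14% of all genes were lower. The difference was below 0 for 27 of the 30 (not for Ocln, Bsg and Acta2) and for 7923 of the 13494 genes. Its medians were -0.38 and -0.29 against -0.05 over all genes. Arrays with the same number and treatment deviated together across subregions and were taken as a block, a pairing that the labels do not state. With that replicate block 10 endothelial and 3 mural genes were lower in the central SCN, adding Mfsd2a, Ramp2, Vwf, Egfl7 and Pdgfrb. The share of all genes lower in the central SCN also grew, to 8.80%. Between ventral and central SCN the block gave 9 and 3, adding Ramp2 and Pdgfrb, and 5.90% of all genes. Both comparisons use the same central arrays, so they are not independent of each other.

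**Figure D1:**
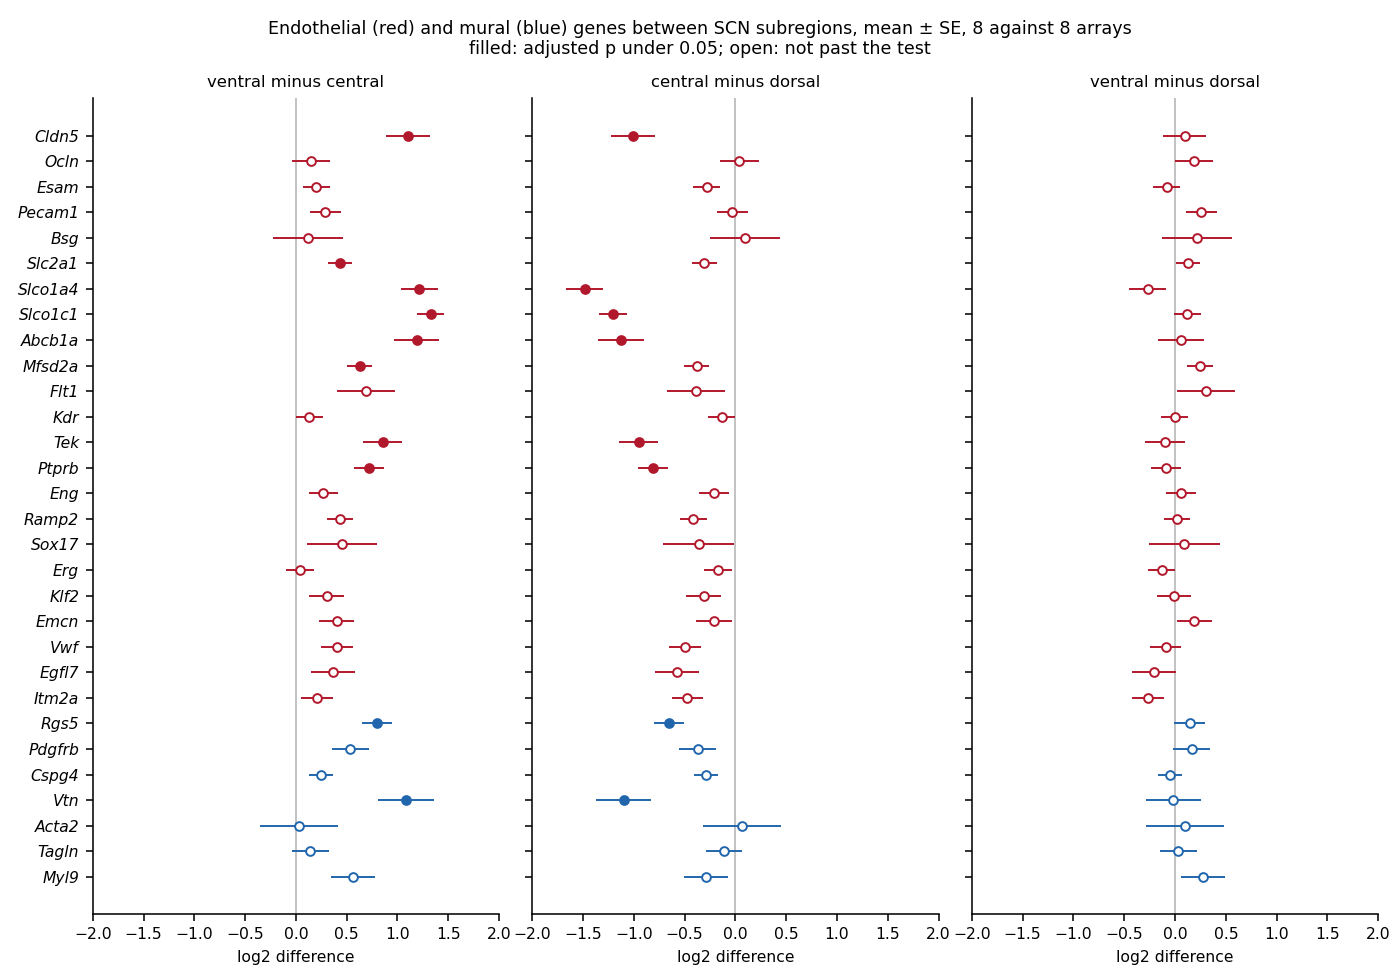
Log2 difference ± SE between subregions for the 30 tested members (rows, endothelial in red, mural in blue), with ventral minus central, central minus dorsal and ventral minus dorsal in 3 panels, and filled symbols for an adjusted p under 0.05. All ventral minus central points lie right of 0, 27 of 30 central minus dorsal points lie left of it, and no ventral minus dorsal point is filled.

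Transporters held 5 of the 8 endothelial genes. Slco1c1 carries thyroid hormones across the barrier. In batch A its lowest, median and highest log2 values were 4.53, 5.50 and 5.92 on the 4 central arrays, 6.34, 6.74 and 6.89 on the ventral and 6.31, 6.36 and 6.76 on the dorsal arrays. In batch B they were 7.33, 7.44 and 8.06 centrally, 8.61, 8.93 and 9.14 ventrally and 8.65, 8.92 and 9.08 dorsally. The central arrays overlapped with neither of the others in either batch, and the ventral and dorsal arrays overlapped in both. The ventral minus central difference was 1.33 ± 0.134 (2.51-fold, adjusted p = 9.6e-07) and the central minus dorsal difference -1.21 ± 0.134 (adjusted p = 2.95e-06).

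Slco1a4, an organic anion transporter of the vessel wall, measured 3.47, 4.10 and 4.55 (lowest, median and highest) on central, 4.72, 5.26 and 5.57 on ventral and 4.99, 5.38 and 6.13 on dorsal arrays of batch A. In batch B it measured 5.38, 5.84 and 6.51, 6.75, 7.02 and 7.88, and 7.11, 7.37 and 7.94 in the same order. Here too no central array reached a ventral or dorsal one of its batch. The differences were 1.21 ± 0.183 (adjusted p = 0.000139) for ventral minus central and -1.48 ± 0.183 (2.8-fold, adjusted p = 1.06e-05) for central minus dorsal.

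Abcb1a encodes P-glycoprotein, the efflux pump of the barrier. Its batch A values were 3.26, 4.13 and 4.79 on central, 4.74, 5.07 and 6.02 on ventral and 4.48, 4.83 and 5.60 on dorsal arrays. Its batch B values were 5.97, 6.18 and 6.84, 7.18, 7.41 and 8.09, and 7.05, 7.49 and 8.72. The subregions overlapped in batch A, and in batch B all central arrays lay below all others. Abcb1a was 1.19 ± 0.225 higher in ventral than central SCN (2.28-fold, adjusted p = 0.00159) and -1.13 ± 0.225 in central against dorsal SCN (adjusted p = 0.00225), while a second, dimmer probe set of the gene gave 0.12 and -0.42. With the mean of the gene's probe sets the ventral minus central call was lost (0.65, adjusted p = 0.0658).

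Mfsd2a, which carries lipids bound to lysophosphatidylcholine and keeps vesicle traffic across the endothelium low, measured 4.36, 4.62 and 5.09 centrally, 5.17, 5.24 and 5.25 ventrally and 4.70, 4.99 and 5.29 dorsally in batch A. In batch B it measured 6.57, 6.80 and 6.93, 7.10, 7.58 and 7.64, and 6.90, 7.26 and 7.46. Central and ventral arrays did not overlap, whereas dorsal arrays reached into both. The ventral minus central difference was 0.63 ± 0.124 (adjusted p = 0.0025), and the central minus dorsal difference of -0.38 ± 0.124 passed the test only with the replicate block (adjusted p = 0.0672 without it and 0.0136 with it).

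Slc2a1, the glucose transporter of the barrier, had the smallest called difference. It measured 9.63, 9.95 and 10.44 on central, 10.21, 10.49 and 10.64 on ventral and 10.38, 10.52 and 10.70 on dorsal arrays of batch A, and 11.15, 11.35 and 11.80, 11.64, 11.79 and 12.03, and 11.00, 11.59 and 11.76 in batch B. The 3 subregions overlapped in both batches. Ventral minus central was 0.43 ± 0.119 (1.35-fold, adjusted p = 0.034). That call was lost in 12 of the 24 fits that each left out 1 array, with the highest adjusted p, 0.0877, without sham central replicate 4, and after median centring of the arrays (adjusted p = 0.0616). Central minus dorsal was -0.31 ± 0.119 (adjusted p = 0.141, and 0.0207 without the 2 arrays that stood apart).

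Among junction and adhesion genes, Cldn5 passed the test and Ocln, Esam, Pecam1 and Bsg did not. Cldn5 encodes claudin-5, the main claudin of the tight junctions of brain endothelium. Its values on central, ventral and dorsal arrays of batch A were 3.55, 4.36 and 4.80, 4.79, 5.29 and 6.10, and 4.71, 5.27 and 5.95. In batch B they were 5.38, 5.58 and 5.92, 6.42, 6.64 and 7.20, and 5.79, 6.66 and 7.29. The median of the central arrays lay below the lowest array of both other subregions in each batch, although the highest central arrays reached the lowest ventral array in batch A and the lowest dorsal array in both. Cldn5 was 1.10 ± 0.214 higher in ventral than central SCN (2.15-fold, adjusted p = 0.00198), and central minus dorsal was -1.01 ± 0.214 (adjusted p = 0.00376). The size was alike in the batches, 1.10 in A and 1.11 in B for ventral minus central, and -1.03 and -0.99 for central minus dorsal.

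The other junction genes differed less. Bsg, or basigin, an immunoglobulin-family protein of the vessel surface, was read on all 24 arrays and differed by 0.12 ± 0.347 between ventral and central SCN. Esam, an adhesion molecule of endothelial contacts, spanned 3.05 to 3.83 on central, 3.41 to 3.56 on ventral and 3.41 to 3.84 on dorsal arrays of batch A, and 4.68 to 5.16, 4.97 to 5.61 and 5.20 to 5.81 in batch B. Its ventral minus central and central minus dorsal differences were 0.20 ± 0.132 and -0.28 ± 0.132 (adjusted p = 0.67 and 0.243). Occludin (Ocln, 0.15 ± 0.190) and Pecam1 (0.29 ± 0.152) had adjusted p-values of 0.926 and 0.469 for ventral minus central.

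Of the receptors, Tek and its phosphatase Ptprb were lowest in the central SCN. Tek is the receptor of the angiopoietins, which keep vessels quiescent, and Ptprb, or VE-PTP, removes phosphate from it. Tek measured 4.18, 4.39 and 4.61 on central, 4.77, 4.99 and 5.27 on ventral and 4.65, 5.26 and 6.10 on dorsal arrays of batch A, and 6.48, 7.13 and 7.49, 7.59, 8.21 and 8.63, and 7.68, 8.04 and 8.42 in batch B. Every central array lay below every ventral and dorsal array of its batch. The differences were 0.86 ± 0.193 (1.81-fold, adjusted p = 0.00794) and -0.95 ± 0.193 (1.94-fold, adjusted p = 0.00252).

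Ptprb measured 5.06, 5.30 and 5.41 on central, 5.30, 5.68 and 5.97 on ventral and 5.70, 6.05 and 6.25 on dorsal arrays of batch A. In batch B it measured 6.64, 6.91 and 7.20, 7.84, 7.98 and 8.06, and 7.41, 7.75 and 8.25. Central arrays overlapped with the ventral arrays of batch A and were below the others in the remaining comparisons. Ptprb differed by 0.72 ± 0.146 (1.65-fold, adjusted p = 0.00317) between ventral and central SCN, with 0.38 in batch A and 1.05 in batch B, and by -0.81 ± 0.146 between central and dorsal SCN (1.75-fold, adjusted p = 0.000928).

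The VEGF receptors did not pass. Flt1 differed by 0.69 ± 0.287 between ventral and central SCN (adjusted p = 0.248). Its batch B dorsal arrays ran from 6.66, on pulsed dorsal replicate 4, to 9.36, and without the 2 arrays that stood apart Flt1 passed in both comparisons, with 0.69 (adjusted p = 0.0156) for ventral minus central and -0.71 (adjusted p = 0.0163) for central minus dorsal. Kdr, the main signalling receptor of VEGF, differed by 0.13 ± 0.133 and -0.13 ± 0.133, and exceeded the limit on 13 arrays. Ramp2, a partner of the adrenomedullin receptor, differed by 0.43 ± 0.131 and -0.41 ± 0.131 (adjusted p = 0.0584 and 0.059), which became 0.0293 and 0.0275 with the replicate block. Eng, a co-receptor of the transforming growth factor family, differed by 0.27 ± 0.144 and -0.21 ± 0.144 (adjusted p = 0.48 and 0.445).

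Transcription factors and surface proteins gave 0 calls among 7 tested genes. The factors Klf2, which responds to blood flow, Sox17 and Erg differed by 0.30 ± 0.171, 0.46 ± 0.348 and 0.04 ± 0.136 between ventral and central SCN. Klf2 spanned 2.66 to 3.16 centrally, 2.76 to 3.13 ventrally and 2.71 to 3.27 dorsally in batch A, and 3.16 to 3.98, 3.54 to 4.38 and 3.27 to 4.42 in batch B. Sox17 spanned 4.32 to 6.42, 4.68 to 5.14 and 4.24 to 5.89 in batch A, and 4.93 to 6.12, 6.49 to 6.91 and 5.56 to 7.89 in batch B, so central and ventral arrays were apart only in batch B. Its probe set is of a type that may also bind related sequences. Its difference was -0.24 in batch A and 1.15 in batch B.

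Von Willebrand factor (Vwf), the clotting protein stored by endothelium, spanned 3.17 to 3.41 on central, 3.08 to 3.76 on ventral and 3.30 to 3.96 on dorsal arrays of batch A, and 3.17 to 3.68, 3.67 to 4.56 and 3.74 to 4.46 in batch B. Its central minus dorsal difference was -0.50 ± 0.157 (adjusted p = 0.0597, with the block 0.0138). Itm2a, a membrane protein enriched in brain endothelium, spanned 4.32 to 4.98, 4.84 to 5.15 and 4.80 to 5.40, and 5.91 to 7.14, 6.50 to 6.96 and 7.01 to 7.59, with -0.47 ± 0.156 for central minus dorsal (adjusted p = 0.072). Egfl7, a protein that endothelium secretes into its matrix, gave -0.57 ± 0.217 (adjusted p = 0.123, with the block 0.0134), and the sialomucin Emcn -0.21 ± 0.173 (adjusted p = 0.541).

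**Figure D2:**
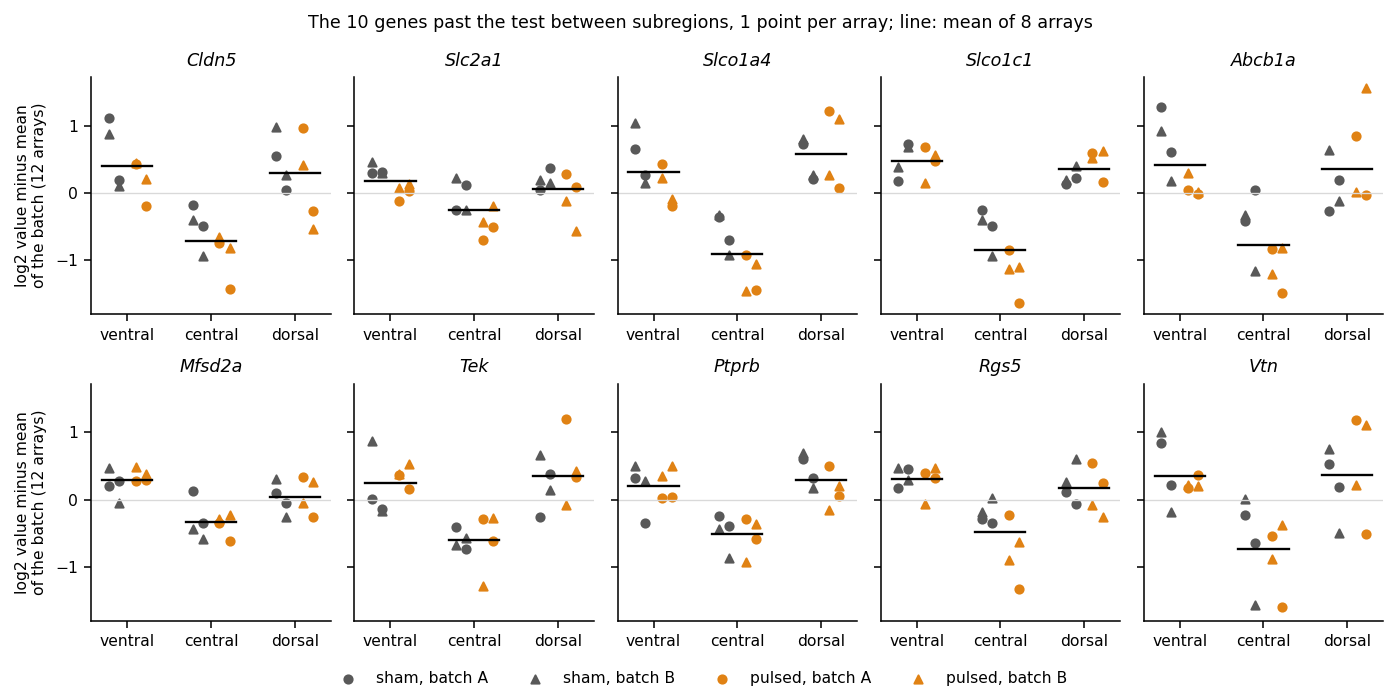
Log2 value minus the mean of its batch on each of the 24 arrays for the 10 genes that passed a test between subregions (1 panel per gene, 1 point per array, lines for the mean of 8 arrays), with sham in grey, pulsed in orange, circles for batch A and triangles for batch B. The central line is the lowest in every panel; for Slco1c1, Slco1a4 and Tek every central point lies below all ventral and dorsal points of its batch.

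Among mural genes, those enriched in pericytes held both calls. Rgs5, a regulator of G protein signalling, measured 5.20, 6.21 and 6.30 on central, 6.70, 6.89 and 6.98 on ventral and 6.46, 6.71 and 7.07 on dorsal arrays of batch A, and 7.83, 8.31 and 8.75, 8.66, 9.10 and 9.19, and 8.47, 8.81 and 9.32 in batch B. Central arrays stood below the others in batch A and overlapped with them in batch B. The differences were 0.80 ± 0.152 (1.74-fold, adjusted p = 0.00161) and -0.65 ± 0.152 (1.57-fold, adjusted p = 0.00792). One of the other probe sets of Rgs5 gave 0.70 and 0.14, so its central minus dorsal difference had the opposite sign. With the mean of the gene's probe sets both calls were lost (0.47 and -0.18, adjusted p = 0.244 and 0.662).

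Vtn, or vitronectin, a secreted adhesion protein made by pericytes in the brain, measured 3.77, 4.77 and 5.13 on central, 5.54, 5.65 and 6.20 on ventral and 4.86, 5.72 and 6.54 on dorsal arrays of batch A. In batch B it measured 5.03, 5.97 and 6.61, 6.42, 6.81 and 7.61, and 6.11, 7.08 and 7.71. Only central and ventral arrays of batch A were apart. Vtn differed by 1.09 ± 0.273 (2.12-fold, adjusted p = 0.018) and -1.10 ± 0.273 (2.15-fold, adjusted p = 0.0133). The first call was lost without sham central replicate 4 (adjusted p = 0.051), and the second without the 2 arrays that stood apart (adjusted p = 0.0562).

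Pdgfrb, the receptor through which endothelium recruits pericytes, differed by 0.54 ± 0.182 and -0.37 ± 0.182 (adjusted p = 0.111 and 0.274). With the replicate block the adjusted p-values were 0.00589 and 0.0448. Cspg4, the NG2 proteoglycan, which pericytes share with oligodendrocyte precursors, differed by 0.25 ± 0.118 and -0.29 ± 0.118, and 0 of its comparisons passed.

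The contractile genes Acta2, Tagln and Myl9, which mark smooth muscle, gave 0 calls. Myl9, the regulatory light chain of smooth muscle myosin, spanned 2.83 to 3.34 on central, 2.93 to 3.24 on ventral and 2.92 to 3.27 on dorsal arrays of batch A, and 4.87 to 5.61, 5.96 to 6.62 and 4.42 to 6.56 in batch B. Its ventral minus central difference of 0.57 ± 0.216 (adjusted p = 0.183) was 0.09 in batch A, where it lay near the floor, and 1.04 in batch B. Tagln spanned 3.40 to 3.87, 3.08 to 4.66 and 3.50 to 3.75 in batch A and 4.05 to 4.79, 4.43 to 5.14 and 4.63 to 4.97 in batch B, and differed by 0.14 ± 0.179. Acta2, smooth muscle actin, differed by 0.03 ± 0.381, and its 95% confidence interval, -0.76 to 0.82, reaches past the difference measured for Rgs5.

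Ventral and dorsal SCN did not differ detectably in the probe sets that stood for the members. Of the 30 members 0 passed the test, where 4.61% of all genes differed in one direction or the other. An unadjusted p under 0.05 was reached by 0 of the 30 and by 2026 of the 13494 genes. The differences ran from -0.27 for Slco1a4 to 0.30 for Flt1, with medians of 0.06 for endothelial and 0.10 for mural genes against 0.01 over all genes, and the lowest adjusted p was 0.368. Another probe set of Rgs5, over the limit on 24 arrays, gave 0.84 for ventral minus dorsal, against 0.14 for the one that stood for the gene. For Cldn5 the difference was 0.10 with a 95% confidence interval of -0.35 to 0.54, for Slco1c1 0.12 (-0.16 to 0.40), for Tek -0.10 (-0.50 to 0.30) and for Vtn -0.02 (-0.58 to 0.55). The intervals of Cldn5, Slco1c1, Tek and Vtn end short of their own ventral minus central differences.

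The order of the subregions was also seen array by array. Between 2 and 8 of the 23 endothelial genes exceeded the mean of their batch on each of the 8 central arrays, against 11 to 23 on each ventral and dorsal array. The mean of the endothelial genes lay -0.55 to -0.15 from the batch mean on central arrays, 0.02 to 0.51 on ventral and -0.03 to 0.47 on dorsal arrays. The highest ventral and the highest dorsal array were sham replicate 3 in each, where 23 of 23 endothelial genes were above the batch mean. Mural genes spread more, with -0.60 to 0.09 on central, -0.15 to 0.59 on ventral and -0.10 to 0.43 on dorsal arrays.

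Within a single treatment fewer genes passed, with 4 arrays against 4. On sham arrays alone Cldn5, Slco1a4, Slco1c1, Abcb1a, Sox17 and Rgs5 were higher in ventral than central SCN (2.68% of all genes), and Slco1a4, Slco1c1 and Ptprb were lower in central than dorsal SCN (2.88% of all). On pulsed arrays alone Slco1c1 was higher in ventral than central SCN (0.519% of all genes), and Slco1a4, Slco1c1 and Abcb1a were lower in central than dorsal SCN (0.474% of all). The ventral minus central difference of Slco1c1 was 1.01 on sham and 1.64 on pulsed arrays.

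The light pulse changed none of the 30 members to an extent that passed the test. Pulsed against sham, 0 of 30 passed in the ventral SCN (0.719% of all genes did), 0 in the central SCN (0.385%) and 0 in the dorsal SCN (0.178%), by limma with 4 against 4 arrays. At an unadjusted p under 0.05 the numbers were 0, 5 and 2 of the 30 members. Over all 13494 genes they were 885, 1087 and 1363. Medians in ventral, central and dorsal SCN were -0.04, 0.01 and -0.09 for endothelial genes, -0.06, -0.24 and -0.11 for mural genes and -0.03, -0.08 and -0.03 for all genes. Single arrays moved the mural medians, which ran from -0.19 (without sham ventral replicate 2) to -0.02 (without sham ventral replicate 3) in the ventral SCN. They ran from -0.48 (without sham central replicate 4) to -0.06 (without sham central replicate 3) in the central and from -0.26 (without pulsed dorsal replicate 1) to -0.0038 (without sham dorsal replicate 4) in the dorsal SCN. The count stayed 0 in each subregion under every alternative that was run and without any single array. Some of these settings could not show a call in the members, since 0 of all 13494 genes passed. This held without the batch term in each subregion, and for the dorsal SCN in batch B alone and with dorsal arrays alone. At such small shares of all genes, a count of 0 of 30 says little about the members.

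The 5 genes of the central SCN all had lower values after the pulse and none passed after adjustment. Of all 13494 genes, 8617 also lay below 0 in that comparison. Slco1c1 measured 5.33 and 4.53 on pulsed and 5.92 and 5.68 on sham arrays of batch A, and 7.34 and 7.36 against 8.06 and 7.52 in batch B. Its pulsed arrays lay below the sham arrays in each batch, and the difference was -0.66 ± 0.189 (adjusted p = 0.2). Slco1a4 showed the same arrangement, with 3.99 and 3.47 against 4.55 and 4.21, and 5.38 and 5.78 against 6.51 and 5.91, and a difference of -0.64 ± 0.258 (adjusted p = 0.485).

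For Slc2a1 the difference was -0.42 ± 0.169, for Rgs5 -0.57 ± 0.214 and for Cspg4 -0.39 ± 0.167. Rgs5 measured 6.30 and 5.20 on pulsed against 6.25 and 6.18 on sham arrays of batch A and 7.83 and 8.09 against 8.53 and 8.75 in batch B, so that a pulsed array of batch A topped its sham arrays. The low array of batch A for Rgs5 and for Slco1c1 was pulsed central replicate 2, 1 of the 2 that stood apart. Without that array Slco1c1 had an adjusted p of 0.6 in the same limma test, the lowest of the 30 members. An unadjusted p under 0.05 was then reached by 3 of the 30.

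In the dorsal SCN Cspg4 differed by -0.38 ± 0.167 (adjusted p = 0.474) and Bsg by -1.08 ± 0.491 (adjusted p = 0.484). Bsg measured 7.35, 7.03, 9.03 and 5.47 on pulsed replicates 1 to 4 and 7.06, 7.63, 9.37 and 9.13 on the sham replicates. The value of 5.47 came from pulsed dorsal replicate 4, the array with the wide gap between Gapdh probe sets, and the other pulsed arrays lay among the sham arrays of their batch or just below them. Cldn5 differed by -0.35 ± 0.302, -0.41 ± 0.302 and -0.31 ± 0.302 in ventral, central and dorsal SCN. The light effect differed between subregions for 0 of the 30 genes (moderated F test of the interaction), where 0.00741% of all genes, 1 of 13494, passed.

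**Figure D3:**
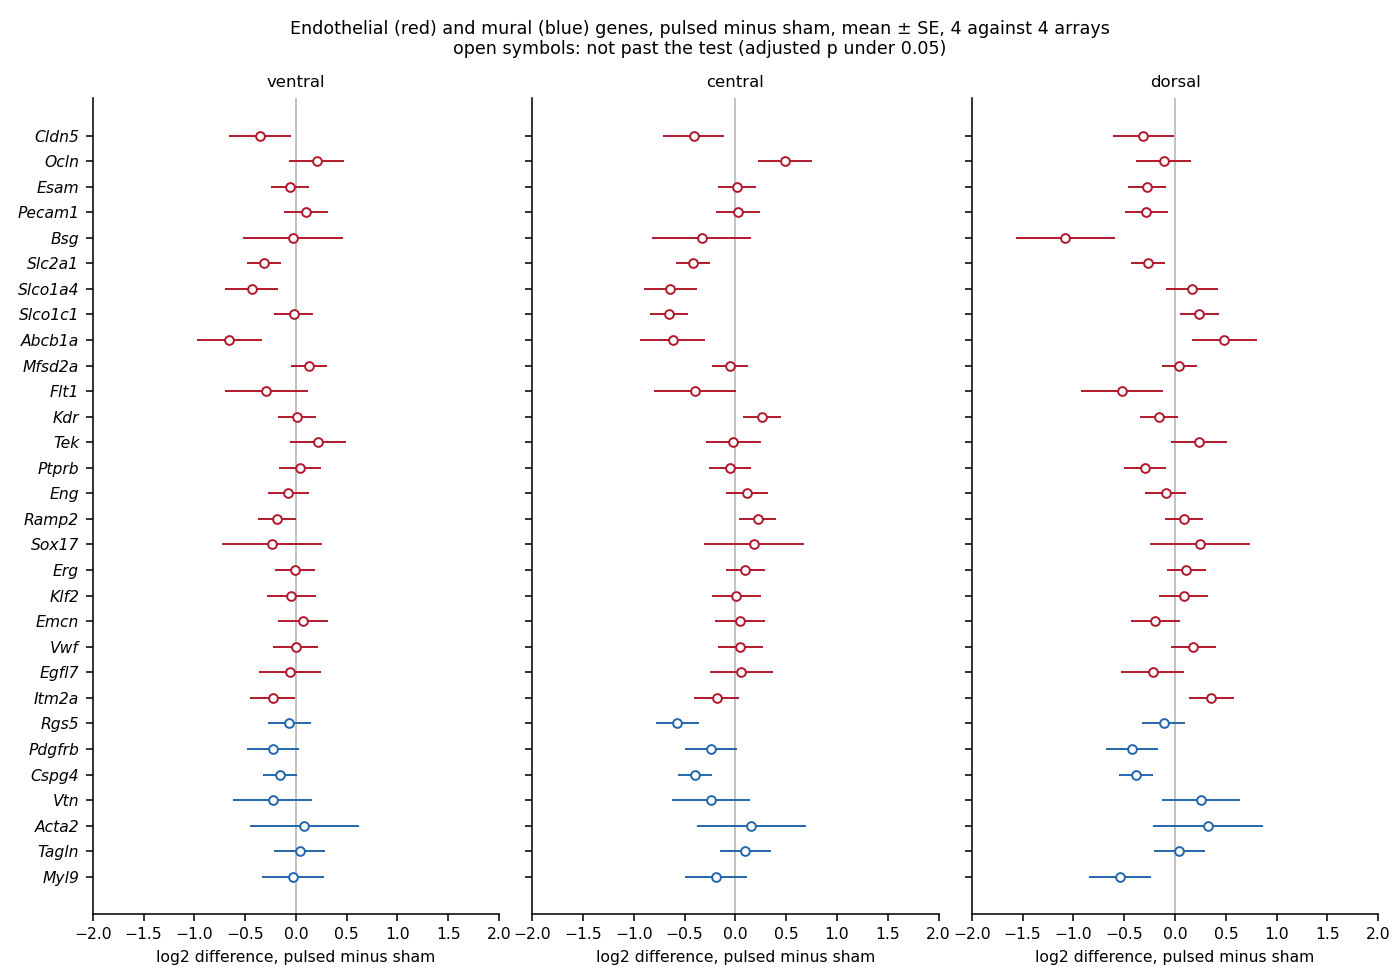
Log2 difference ± SE of pulsed minus sham (4 against 4 arrays) for the 30 tested members, with ventral, central and dorsal SCN in 3 panels, endothelial genes in red and mural genes in blue. All symbols are open, since 0 of 30 passed an adjusted p under 0.05 in each panel; the lowest point is Bsg in the dorsal SCN at -1.08.

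Other genes of the vascular pathways were read from lists chosen on function, against a background of 4.36% of all genes higher and 0.845% lower in ventral than central SCN, and 5.14% lower and 1.96% higher in central than dorsal SCN. Of 15 tested ligands of vascular receptors, 1 was higher in ventral than central SCN, Angpt1, the agonist of Tek (0.51 ± 0.146, adjusted p = 0.0402), and 1 was lower in central than dorsal SCN, Vegfa (-0.61 ± 0.120, adjusted p = 0.00193), shares near that background. Of 16 tested receptors and co-receptors, 4 were higher in ventral than central SCN, namely the endothelin receptor Ednrb (0.75, adjusted p = 0.00138), Tgfbr2 (0.69, adjusted p = 0.0118), the mural Notch receptor Notch3 (0.71, adjusted p = 0.0132) and the norrin co-receptor Tspan12 (0.45, adjusted p = 0.0359). The neuropilin Nrp2 was lower there (-1.05, adjusted p = 2.86e-06). Between central and dorsal SCN, Tgfbr2 (-0.72, adjusted p = 0.00704) and Calcrl, which pairs with Ramp2 (-0.56, adjusted p = 0.0148), were lower and Nrp1 was higher (0.66, adjusted p = 0.00245). Between ventral and dorsal SCN, Nrp1 (0.61) and Ednrb (0.58) were higher and Nrp2 (-0.74) was lower in the ventral SCN, where 2.63% of all genes were higher and 1.98% lower. Nrp1 and Nrp2 are also made by neurons, and Ednrb by astrocytes.

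Among 22 further endothelial genes, 4 were higher in ventral than central SCN and 0 lower: the hypoxia factor Epas1 (0.53, adjusted p = 0.00146), the sialomucin Podxl (0.48, adjusted p = 0.00875), Ctla2a (0.92, adjusted p = 0.000492) and the carbonic anhydrase Car4 (0.74, adjusted p = 0.0382). Of the same 22, 5 were lower in central than dorsal SCN, namely Plvap, a protein of fenestrated endothelium (-0.78, adjusted p = 0.00164), Pltp (-1.23, adjusted p = 0.00458), the Wnt inhibitor Apcdd1 (-0.95), Epas1 (-0.50) and Podxl (-0.49), and 1, the efflux pump Abcg2, was higher (0.48). Among 13 further mural genes, Atp13a5 (1.07, adjusted p = 0.00155), Mcam (0.56, adjusted p = 0.0184) and Cald1 (0.74, adjusted p = 0.0147) were higher in ventral than central SCN, and Atp13a5 (-1.02, adjusted p = 0.00225) and Cald1 (-0.69, adjusted p = 0.0191) were lower in central than dorsal SCN. In ventral against dorsal SCN, Abcg2 (0.69) and Ctla2a (1.03) were higher in the ventral SCN, and 0 of the mural genes passed. Medians of the further endothelial and mural lists were 0.30 and 0.24 for ventral minus central and -0.31 and -0.27 for central minus dorsal.

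After the light pulse 2 of the 22 further endothelial genes rose, and 0 of the ligands, receptors and further mural genes passed in any subregion. Of all genes, 0.719% passed in the ventral, 0.385% in the central and 0.178% in the dorsal SCN. At such shares, counts of 0 say little about these lists. Slc7a5, a carrier of large neutral amino acids, rose in the ventral SCN (0.82 ± 0.180, 1.77-fold, adjusted p = 0.0279), and Ctla2a, a gene for a cysteine protease inhibitor, rose in the central SCN (1.19 ± 0.220, 2.29-fold, adjusted p = 0.0108). In the other subregions Slc7a5 differed by 0.40 and 0.24 (central, dorsal) and Ctla2a by 0.77 and 0.96 (ventral, dorsal), none past the test. Whether these effects differ between subregions is not shown by those values. Slc7a5 is also made by neurons.

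Markers of other cells moved between the subregions as well. In ventral against central SCN 6 of 6 oligodendrocyte genes were higher, with a median of 2.59 on the log2 scale, 5 of 8 astrocyte genes (0.70), 2 of 4 genes of oligodendrocyte precursors (0.62), 0 of 8 of microglia (0.40) and 0 of 9 of neurons (0.02). In central against dorsal SCN 5 of 6 oligodendrocyte genes were lower (-1.42), 1 of 8 of astrocytes (-0.16), 4 of 4 of oligodendrocyte precursors (-0.77), 2 of 8 of microglia (-0.46) and 2 of 9 of neurons (-0.25). The share of all genes was 4.36% and 5.14% in these directions. Of 4 genes of hypothalamic neurons that neighbour the SCN, 2 were higher in ventral than central SCN (median 1.28) and 4 lower in central than dorsal SCN (-1.90). For ependymal cells and tanycytes it was 0 of 4 (0.46) and 2 of 4 (-0.95). Of 6 genes of meninges and perivascular fibroblasts 1, Col1a1, was higher in ventral than central SCN and 0 passed in central against dorsal SCN, while 6 of 6 differences lay above 0 in the former (0.38) and 6 of 6 below 0 in the latter (-0.26). The single tested gene of blood, Hbb-b2, differed by -0.02 and was lower in central than dorsal SCN (-0.76, adjusted p = 0.0415). Genes of SCN neurons went the other way in their medians but not in every gene. In ventral against central SCN 3 of the 7 lay above 0, and in central against dorsal SCN 2 of the 7 lay below 0. Of 7 tested, 2 were lower and 0 higher in ventral than central SCN (median -0.42), where 0.845% of all genes were lower. In central against dorsal SCN 3 of the 7 were higher and 1 lower (0.52), where 1.96% of all genes were higher. Of 3 choroid plexus genes 0 passed in either comparison (medians -0.01 and -0.17). In ventral against dorsal SCN, 2.63% of all genes were higher and 1.98% lower. There 5 of 6 oligodendrocyte and 3 of 8 astrocyte genes were higher. Lower were 2 of 9 genes of neurons, 2 of 4 of ependymal cells and tanycytes, 1 of 4 of neighbouring hypothalamic neurons and Hbb-b2. Of SCN neuron genes 2 were higher and 1 lower, and oligodendrocyte precursors, microglia, meninges and choroid plexus gave 0 calls.

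The summed level of these lists, as a mean per array, ran from 7.91 to 8.24 centrally, 8.91 to 9.12 ventrally and 8.26 to 8.74 dorsally for astrocytes in batch A, and from 9.94 to 10.18, 10.49 to 10.77 and 9.75 to 10.37 in batch B. For oligodendrocytes the ranges were 5.53 to 6.50, 8.26 to 8.86 and 7.06 to 7.57 in batch A, and 7.20 to 7.66, 9.50 to 9.91 and 8.58 to 9.04 in batch B. None of the defining astrocyte markers was below the limit on any array. Endothelial means ran from 4.27 to 4.59, 4.75 to 4.95 and 4.70 to 5.12 in batch A, and from 5.82 to 6.07, 6.46 to 6.88 and 6.40 to 6.84 in batch B. Slco1c1 and Slc2a1 are also made by astrocytes, and Cspg4 by oligodendrocyte precursors. The part of other cell types and of the tissue borders in the vascular differences was not tested.

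**Figure D4:**
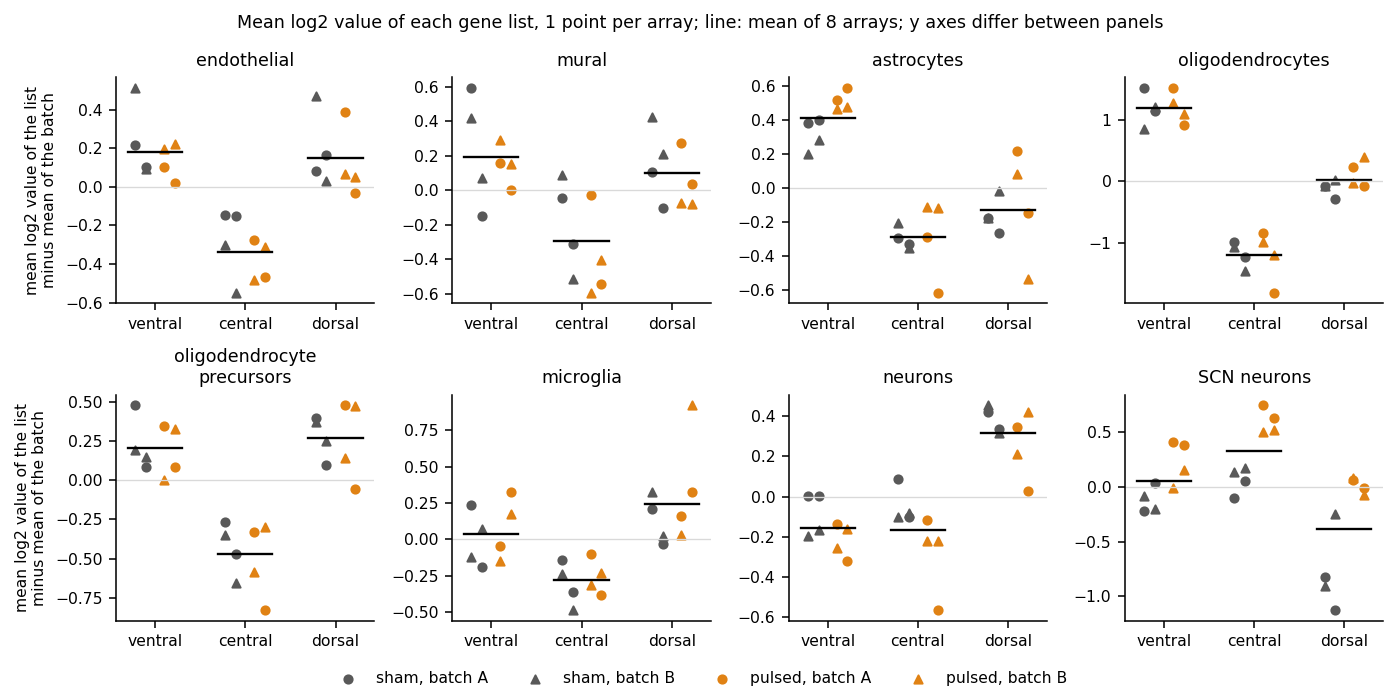
Mean log2 value of each gene list minus the mean of its batch, 1 point per array by subregion (lines are means of 8 arrays, grey sham, orange pulsed, circles batch A, triangles batch B; the y axes differ between panels). Endothelial points lie between -0.55 and -0.15 on central arrays and between -0.03 and 0.51 on the others, and oligodendrocyte points span -1.82 to 1.52.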

How the data were processed

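RNA of laser-cut SCN subregions was measured on 24 arrays, amplified and labelled in 2 batches per the labels. The values are log2 expression values deposited by the authors, 1 for each of 45101 probe sets, made with R 3.0.2, GCRMA 2.32.0 and MAS5 in roles not stated, per the submitters' processing notes. Of the probe sets, 34945 had 1 symbol, 932 several and 9160 none in the platform annotation, and 64 were controls. The probe set with the highest mean stood for a gene, which matters for 9010 genes with more than 1. A gene was tested if its value exceeded 4 on at least 4 arrays, which left out 4699 genes.

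Differences came from limma 3.58.1 (eBayes after lmFit, R 4.3.3; 6 group means plus a batch term, 17 residual and 4.7 prior degrees of freedom), two-sided, with Benjamini-Hochberg adjustment over 13494 genes. A gene is called higher or lower at an adjusted p under 0.05, and ± gives the standard error. The fit was checked on simulated data. Members and lists were chosen with earlier results of these data known. Array values are given for members that passed and for the 2 of each role with the smallest p. Of the related lists, genes that passed are named. Deviations of same-numbered arrays of different subregions within a treatment correlated at 0.18 to 0.62, so the numbers were taken to pair subregions, whereas pulsed with sham gave 0.096 to 0.40 and were not paired. These ranges overlap and the labels do not state a pairing, so results with the replicate block rest on an assumption. Alternatives covered the batch, scaling, array weights, filter, probe sets, prior, replicate block and single arrays left out. The number of arrays limits the precision.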

Additional observations from a re-analysis of the deposited data

Results flagged for a closer look

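In each group of 4 arrays the highest and lowest value, after subtraction of the batch mean, was compared with the others for the 10 genes that passed a test and for the endothelial and mural means, 72 sets of 4 values in all, of which 3 held an array far from the rest. Dixon's critical value for 4 values at the 95% level was the limit, which chance alone passes in about 1 in 20 sets. Slc2a1 was highest on sham ventral replicate 3, 0.46 above its batch mean, and the gap to the next array was 0.891 of the range of the group. Tek was highest on the same array, 0.87 above its batch mean, with a gap of 0.83 of the range. Abcb1a was highest on pulsed ventral replicate 3, 0.30 above its batch mean, with a gap of 0.838 of the range.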

How the results depend on the processing

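In fits of both batches together, all calls between subregions rest on the batch term. Without it 0 endothelial and 0 mural genes passed in ventral against central or central against dorsal SCN. With it the counts were 8 and 2, and 6 and 2. The loss was not particular to these genes. Without the term only 0.0667% of all genes were higher in ventral than central SCN and 0.0222% lower in central than dorsal SCN. For ventral against central SCN the endothelial count was 1 in batch A alone, 2 in batch B alone, 5 on sham and 1 on pulsed arrays. The mural count was 0, 0, 1 and 0. In the same order 1.23%, 1.06%, 2.68% and 0.519% of all genes were higher in the ventral SCN. For central against dorsal SCN the endothelial count was 2 in batch A, 2 in batch B, 3 on sham and 3 on pulsed arrays. The mural count was 0 in each of the 4. In the same order 0.889%, 1.15%, 2.88% and 0.474% of all genes were lower in the central SCN. Those subsets hold fewer arrays. Central against dorsal, array weights gave 12 and the replicate block within treatment 10 endothelial genes, while the share of all genes lower in the central SCN rose from 5.14% to 9.28% and 8.80%, and 1 mural gene passed without the 2 arrays that stood apart. For ventral against central SCN the block gave 9 and 3. Leaving out 1 array gave 7 to 10 and 1 to 3 genes for ventral against central, and 6 to 10 and 2 to 3 for central against dorsal. The other alternatives for these counts stayed within 1.5 times, and those for light, interaction and ventral against dorsal stayed at 0. For light some of these settings called 0 of all genes. None of the called differences of the 10 genes reversed. Members that did not pass could change sign, as Sox17 and Acta2 did for ventral minus central in batch A alone. Values near the floor in batch A limit what can be seen for dim genes such as Klf2, Vwf, Pecam1 and Myl9.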
